A study of Homo sapiens with 4 samples.

Results

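Sestrins and a group of metabolic genes that p53 is known to induce were followed in single-cell transcriptomes of irradiated and untreated U-2 OS cells. The 8 genes were SESN1, SESN2 and SESN3, TIGAR, TP53I3, FDXR, DRAM1 and ACER2. They were chosen by symbol, and all 8 were found among the 36601 genes of each library. U-2 OS is a human osteosarcoma cell line, established long ago, in which p53 is wild type. It is 1 line, so the values speak for this line only. In the IR group, cells received 4 Gy of ionizing radiation. In the UT group, cells of the same line were left untreated. The series design puts irradiation 48 h before sorting, as the study's methods do, whereas the treatment protocol names 24 h. Cells were sorted singly into plates and sequenced by SORT-seq, a method that primes polyadenylated RNA at its 3′ end and gives every molecule the barcode of its cell and a unique molecular identifier (UMI). Each of 2 experiments gave 1 IR and 1 UT library, so each group had n = 2.

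The p53 protein is a transcription factor that damage to DNA stabilises. Beside genes of arrest and cell death it induces genes that adjust growth and metabolism. Sestrins restrain the growth kinase complex mTORC1 through the GATOR complexes at the lysosome, and SESN1 and SESN2 are known p53 targets whereas SESN3 is best known as a target of FOXO factors. The other genes act on glucose, redox balance, autophagy and ceramide.

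The IR libraries held 247 and 248 cells and 5736339 and 6186428 gene counts in experiments 1 and 2, against 358 and 367 cells and 5867961 and 6810079 gene counts in UT. The median cell held 20181 and 22035 counts in IR and 15662 and 17627 in UT. Levels are given below as CPM, the gene's share of its library's gene counts on the usual CPM scale, so they are relative to all RNA counted and not per cell. VIM, a mesenchymal marker, lay between 1722 and 2215 CPM in the 4 libraries, and RUNX2, a regulator of bone cells, between 22 and 30.2 CPM. COL1A1 (1537 to 2377 CPM), SPARC (1114 to 1199), FN1 (236.2 to 541.9) and CDH2 (86.66 to 97.18), also mesenchymal, were present. Mesenchymal COL1A2 (0.511 to 2.64 CPM) and ALPL (1.76 to 9.4) were low. KRT19 (epithelial) and HBB (red blood cells) had no counts, but epithelial EPCAM had 13.6 to 17.2 CPM and CDH1 0.852 to 1.62. The blood gene PTPRC had 0.511 to 3.56 CPM. Of 376 different barcodes, 161 occurred in all 4 libraries; plates draw on a shared set of barcodes, so a shared barcode does not mark a shared cell. CDKN1A, which encodes the cell cycle inhibitor p21 and is a known p53 target, had 958.9 and 914.3 CPM in IR against 323.8 and 277.4 CPM in UT, a log2 fold change of 1.56 (SE 0.17, edgeR adjusted p = 0.0176). MDM2, the ubiquitin ligase of p53, had 238.5 and 298.1 CPM in IR against 79.1 and 104.8 CPM in UT, a log2 fold change of 1.47 (SE 0.20, adjusted p = 0.0225).

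Of the 8 genes, 5 rose in IR (SESN1, SESN2, TIGAR, FDXR and DRAM1) by 2.3-fold to 2.6-fold, and none fell at an edgeR adjusted p under 0.05 (1, SESN3, was lower at an unadjusted p under 0.05, and DESeq2 called none lower). Among all 14647 genes tested 1.63% were called higher and 0.847% lower. All 8 genes passed the filter on low counts. TP53I3 and ACER2 had higher values in IR without passing the test, and SESN3 had lower ones. With the experiment as a block, which the pairing of libraries by experiment allows, 6 of the 8 were called higher, where 14.3% of all genes were, and 1 (SESN3) was called lower, where 12.9% of all genes were. In 7 of the 8 genes both IR libraries lay above both UT libraries, a pattern that 30.7% of all genes tested showed. The median log2 fold change over all genes tested was -0.0033. Scaling to counts per cell in place of CPM moved that median to 0.54. The changes below are therefore relative to the bulk of the transcriptome, whose counts per cell were higher in IR.

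**Figure D1:**
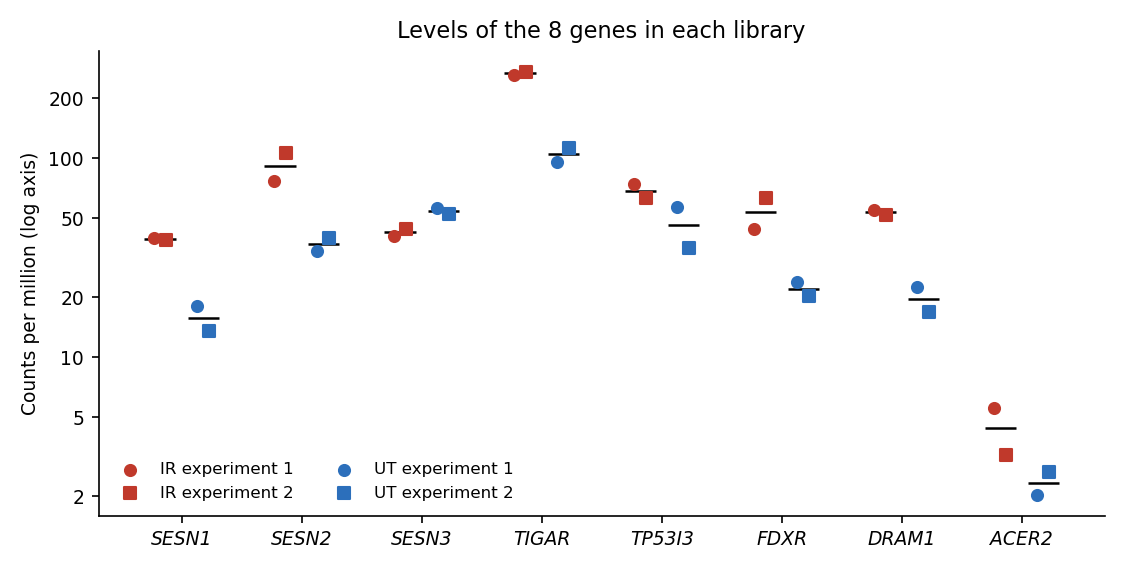
Level of each of the 8 genes in CPM (log axis) in the 2 IR libraries (red, left of each pair) and the 2 UT libraries (blue, right), with circles for experiment 1, squares for experiment 2 and black lines for the group means. TIGAR stood at 260.8 and 270.8 CPM in IR and 95.9 and 112.5 CPM in UT, whereas SESN3 was the only gene of the 8 with both IR points below both UT points.

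The DNA in front of these genes was searched for the p53 response element, a site of 20 letters made of a pair of 10-letter elements. Sequences are RefSeq's GRCh38.p14 promoter windows, of which the 250 bases before each annotated start were read on both strands, with no spacer allowed between the elements. All 8 genes had a window, and SESN1 and FDXR had several, giving 11. The nearest match came within 3 mismatches in 2 of the 11 windows, 1 of SESN1 and 1 of FDXR, and 4.36% of all 35116 windows came as close. Those same 2 windows held an exact 10-letter element, as did 5.57% of all windows. The stretches that follow compare the 2 nearest matches with those of DRAM1, another gene that rose, and of SESN3, the gene with lower values in IR. They are written 5′ to 3′ on the gene's strand, and capitals mark the best match to the full site.
SESN1, chr6:109009013-109009042, minus strand, 3 mismatches: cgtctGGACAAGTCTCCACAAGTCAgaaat
FDXR, chr17:74872995-74873024, minus strand, 3 mismatches: ggcgggcccGGGCAGGAGCGGGCTTGCCCt
DRAM1, chr12:101877545-101877574, plus strand, 4 mismatches: tttcgCAACAAGCCCGGGCAGCCCGcgccc
SESN3, chr11:95232664-95232693, minus strand, 6 mismatches: aaaagAAAGAAATGCAAACCAGTGAaaccg
The SESN1 match lay 49 to 30 bases before the start of 1 of the 3 SESN1 windows, and the FDXR match 21 to 2 bases before the start, where another FDXR transcript of GENCODE release 44 has an exon. The other genes' best matches had 4 mismatches (ACER2), 5 (SESN2 and TP53I3) and 6 (TIGAR), and the median over all windows was 5. TIGAR, which rose, thus had as many mismatches as SESN3, and ACER2, which was not called, as many as DRAM1. Binding was not measured in these libraries, and response elements outside the windows were not searched.

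SESN1 and SESN2 both rose in IR. SESN1 (chr6:108984309-109094846, minus strand) encodes a leucine-responsive inhibitor of mTORC1 signalling. It had 39.7 and 38.8 CPM in IR, from 228 and 240 counts, against 18.1 and 13.5 CPM in UT, from 106 and 92 counts. The IR libraries were close to each other and lay above both UT libraries. The log2 fold change was 1.24 (SE 0.21, edgeR adjusted p = 0.0387), with 1.04 in experiment 1 and 1.43 in experiment 2. The call was lost without IR experiment 1 (adjusted p = 0.108), without IR experiment 2 (0.0655) and without UT experiment 2 (0.0957), while the log2 fold change stayed at 1.03 or above.

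SESN2 (chr1:28259518-28282491, plus strand), a leucine sensor that binds GATOR2 and that the stress factor ATF4 is known to induce as well as p53, had the larger counts of the pair. It had 76.7 and 105.7 CPM in IR, from 440 and 654 counts, against 34.1 and 39.6 CPM in UT, from 200 and 270 counts. The groups did not overlap, and experiment 2 was the higher in both groups. Between the groups the log2 fold change was 1.23 (SE 0.20, edgeR adjusted p = 0.0387), with 1.08 and 1.33 in experiments 1 and 2. Without IR experiment 2 it was 0.98 (adjusted p = 0.0806), and without UT experiment 1 the adjusted p was 0.0679.

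SESN3 stood apart in direction from its relatives. SESN3 (chr11:95165513-95232541, minus strand), the sestrin induced by FOXO factors, had 40.8 and 43.97 CPM in IR, from 234 and 272 counts, against 55.9 and 52.1 CPM in UT, from 328 and 355 counts. Both IR libraries lay below both UT libraries, where 36.4% of all genes tested were lower in IR in both experiments. The log2 fold change of SESN3 was -0.43 (SE 0.16), with -0.53 and -0.32 in experiments 1 and 2. It was not called by edgeR (adjusted p = 0.217). It was called once the experiment was taken as a block (-0.43, adjusted p = 0.00760). The direction depended on the scale: with counts per cell the log2 fold change of SESN3 was 0.12 (adjusted p = 0.638), which is still below the median of all genes on that scale. Exons of SESN3 overlap those of an antisense gene, LNCRNA-IUR, which had 2.44 and 3.395 CPM in IR and 2.73 and 5.58 CPM in UT, and no source used here says how the counting treated strand.

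The balance among the sestrins differed between the groups in both experiments. The log2 ratio of SESN3 to SESN1 counts was 0.04 and 0.18 in IR against 1.63 and 1.95 in UT. The log2 ratio of SESN3 to SESN2 counts was -0.91 and -1.27 in IR against 0.71 and 0.39 in UT. Each molecule gives 1 tag at its 3′ end, so these ratios do not depend on transcript length, but capture can differ between genes and only the shift between groups is read here. SESN3 counts thus fell short of SESN2 counts in both IR libraries and exceeded them in both UT libraries.

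TIGAR, which encodes a fructose bisphosphatase that slows glycolysis and favours the pentose phosphate pathway, was the most precisely measured of the 8. TIGAR (chr12:4307763-4360028, plus strand) had 260.8 and 270.8 CPM in IR, from 1496 and 1675 counts, against 95.9 and 112.5 CPM in UT, from 563 and 766 counts. The spread within each group was small beside the gap between the groups. Between the groups the log2 fold change was 1.27 (SE 0.15, edgeR adjusted p = 0.0200), with 1.36 and 1.19 in experiments 1 and 2. It was the one call of the 5 that held when each library was left out in turn (adjusted p 0.0171 to 0.0445).

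The 2 oxidoreductase genes gave different results. FDXR (chr17:74862497-74873031, minus strand) encodes ferredoxin reductase, the mitochondrial flavoprotein that passes electrons to ferredoxins for steroid and iron-sulfur cluster synthesis. It had 44.1 and 62.9 CPM in IR, from 253 and 389 counts, against 23.9 and 20.4 CPM in UT, from 140 and 139 counts. Both IR libraries lay above both UT libraries, and the IR libraries differed more from each other than the UT libraries did. The log2 fold change was 1.19 (SE 0.22, edgeR adjusted p = 0.0471), with 0.80 in experiment 1 and 1.53 in experiment 2. The adjusted p exceeded 0.05 without IR experiment 2 (0.121), without UT experiment 1 (0.0527) and without UT experiment 2 (0.103).

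TP53I3 (chr2:24077433-24085861, minus strand), also known as PIG3, encodes a quinone oxidoreductase. It had 74.4 and 62.7 CPM in IR, from 427 and 388 counts, against 56.8 and 35.2 CPM in UT, from 333 and 240 counts. The groups did not overlap, but the 2 UT libraries lay further apart than the highest UT value lay from the lowest IR value. Its log2 fold change of 0.50 (SE 0.25) was not called by edgeR (adjusted p = 0.362). In experiment 1 it was 0.31 and in experiment 2 it was 0.75, and with the experiment as a block it was called (0.52, adjusted p = 0.000635). The antisense neighbour FAM228B, whose exons overlap those of TP53I3, held at most 2.39 CPM in any library.

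DRAM1 (chr12:101877580-102012130, plus strand), a lysosomal membrane protein that promotes autophagy downstream of p53, rose in IR. It had 54.7 and 52.1 CPM in IR, from 314 and 322 counts, against 22.5 and 16.9 CPM in UT, from 132 and 115 counts. The groups were well separated. Between the groups the log2 fold change was 1.36 (SE 0.20, edgeR adjusted p = 0.0290), with 1.19 and 1.53 in experiments 1 and 2. Without IR experiment 1 the adjusted p was 0.0725, and without UT experiment 2 it was 0.0507.

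ACER2 (chr9:19409009-19452505, plus strand), an alkaline ceramidase of the Golgi that releases sphingosine from ceramide, was near the limit of detection. It had 5.58 and 3.23 CPM in IR, from 32 and 20 counts, against 2.05 and 2.64 CPM in UT, from 12 and 18 counts. The lower IR library and the higher UT library were 2 counts apart. For ACER2 the log2 fold change was 0.82 (SE 0.42, edgeR adjusted p = 0.365), with 1.24 in experiment 1 and 0.19 in experiment 2, and it was not called with the block either (adjusted p = 0.112). CD3E, a T cell gene, had 3.56 CPM in IR and 4.11 CPM in UT of experiment 2 and no counts in experiment 1. In experiment 2, then, a level of this size was also seen for a gene that this line should lack.

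The changes were also visible as numbers of cells. To compare libraries of unequal depth, each cell was thinned to 8000 UMIs, which 231 and 232 IR cells and 333 and 356 UT cells reached. A cell was counted when at least 1 UMI of the gene remained. Exact (Clopper-Pearson) 95% intervals cover counting error only. No cell type without these genes was in the plates to give a background share, and no test was run on the shares.

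At this depth TIGAR was found in most irradiated cells, in 84.4% (79.1 to 88.8) and 82.3% (76.8 to 87.0) of IR cells against 49.5% (44.1 to 55.1) and 54.5% (49.2 to 59.8) of UT cells. Before thinning these shares were 94.3% and 95.2% in IR against 67.9% and 75.2% in UT. SESN2 was found in 44.6% (38.1 to 51.2) and 54.3% (47.7 to 60.8) of IR cells against 19.2% (15.1 to 23.9) and 21.1% (16.9 to 25.7) of UT cells. Before thinning SESN2 was found in 70.9% and 74.6% of IR cells against 32.4% and 38.7% of UT cells. For both genes the intervals of the groups did not meet.

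SESN1 was found in 29.0% (23.2 to 35.3) and 25% (19.6 to 31.1) of IR cells against 11.7% (8.46 to 15.7) and 9.55% (6.71 to 13.1) of UT cells. DRAM1 was found in 34.2% (28.1 to 40.7) and 30.2% (24.3 to 36.5) of IR cells against 15.9% (12.2 to 20.3) and 12.1% (8.88 to 15.9) of UT cells. FDXR was found in 28.6% (22.8 to 34.9) and 36.6% (30.4 to 43.2) of IR cells against 15.9% (12.2 to 20.3) and 12.9% (9.62 to 16.9) of UT cells. In these 3 genes too every IR interval lay above every UT interval. The share of all genes whose intervals lie apart in this way was not computed. The separation thus cannot be called particular to these genes or to TIGAR and SESN2. The shares before thinning were 52.2% and 48.0% in IR against 22.9% and 18.3% in UT for SESN1, 60.7% and 57.7% against 27.4% and 23.7% for DRAM1, and 54.7% and 68.5% against 28.8% and 26.7% for FDXR.

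The remaining genes did not separate in this way. SESN3 was found in 26.0% (20.4 to 32.1) and 27.6% (21.9 to 33.8) of IR cells against 31.8% (26.9 to 37.1) and 28.1% (23.5 to 33.1) of UT cells, with overlapping intervals. TP53I3 was found in 38.5% (32.2 to 45.1) and 36.2% (30.02 to 42.8) of IR cells against 33.9% (28.9 to 39.3) and 20.5% (16.4 to 25.1) of UT cells. Its UT library of experiment 1 overlapped both IR libraries, and that of experiment 2 lay below them. ACER2 was found in 3.03% and 1.72% of IR cells and in 1.201% and 2.25% of UT cells, between 4 and 8 cells per library, and no difference was detectable at this depth. Before thinning the shares were 42.9% and 52.8% in IR against 47.5% and 50.1% in UT for SESN3, 64.8% and 62.1% against 52.5% and 42.2% for TP53I3, and 9.72% and 6.05% against 3.35% and 4.63% for ACER2.

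**Figure D2:**
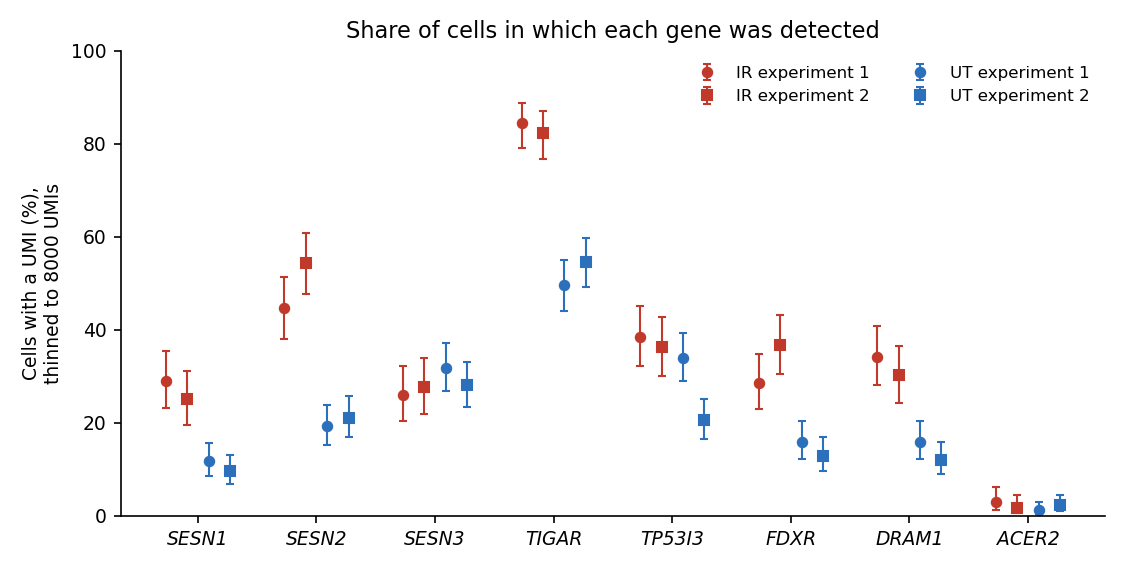
Share of cells (%) with at least 1 UMI of each gene after thinning to 8000 UMIs, in the IR libraries (red, left) and the UT libraries (blue, right); circles are experiment 1, squares experiment 2, and bars are exact 95% intervals. The intervals of IR and UT are apart for SESN1, SESN2, TIGAR, FDXR and DRAM1, and overlap for SESN3 and ACER2. For TP53I3 the UT interval of experiment 1 overlaps both IR intervals and that of experiment 2 lies below them. How many of all genes have intervals apart was not computed.

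Irradiated cells carried more of the 8 genes at once. At 8000 UMIs a cell showed a mean of 2.88 and 2.94 of the genes in IR (SD over cells 1.27 and 1.34) against 1.79 and 1.61 in UT (SD 1.32 and 1.23), and the medians were 3 and 3 in IR against 2 and 1 in UT. At least 5 of the 8 were seen in 10.4% and 12.9% of IR cells against 4.204% and 2.53% of UT cells, and no cell showed all 8. SESN1 and SESN2 were found together in 17.3% and 13.8% of IR cells against 3.60% and 2.81% of UT cells. No sestrin was found in 34.2% and 25% of IR cells against 51.4% and 53.7% of UT cells. These shares follow from the single-gene shares to an extent that was not tested.

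**Figure D3:**
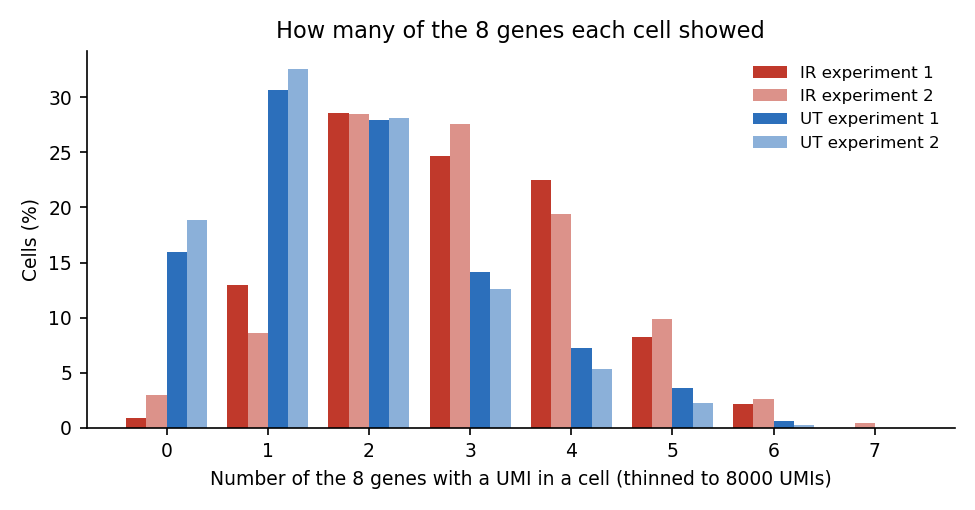
Percentage of cells (y axis) by how many of the 8 genes had a UMI after thinning to 8000 UMIs (x axis), as bars for IR experiments 1 and 2 (reds) and UT experiments 1 and 2 (blues). Cells with none of the genes made up 0.866% and 3.02% in IR against 15.9% and 18.8% in UT, and cells with 4 of them made up 22.5% and 19.4% in IR against 7.21% and 5.34% in UT.

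A smaller share of irradiated cells was high in cell cycle transcripts, so the 8 genes were also compared among cells low and among cells high in them. UMIs of 58 genes of S phase and mitosis were summed in each thinned cell. Cells at or below the pooled median of 60 UMIs were called low in cycle genes. They made up 65.4% and 67.2% of IR cells (151 and 156 cells) against 40.2% and 38.8% of UT cells (134 and 138 cells). The division is a range of a sum and not a cell type: 37 and 39 IR cells and 67 and 66 UT cells lay within 10 UMIs of it. The low cells were not alike in the groups, with a median of 11 and 13 cycle UMIs in IR against 33.5 and 36 in UT, while the high cells had 79.5 and 80.5 in IR against 87 and 92 in UT.

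SESN3 was the only gene of the 8 whose level was more than 2 times higher in low than in high cells in every library. Its mean thinned count in low cells was 2.26 and 2.19 times that in high cells in IR and 2.7 and 3.1 times in UT. The same ratio was 1.31 and 1.51 in IR and 1.56 and 1.57 in UT for TIGAR, and 1.09 and 1.33 in IR and 1.17 and 1.38 in UT for DRAM1. SESN1, SESN2, TP53I3 and FDXR also had ratios above 1 in all 4 libraries, from 1.08 (FDXR, IR experiment 1) to 3.199 (SESN1, UT experiment 1). ACER2 gave no steady order, at 0.162 to 4.46. The share of all genes with ratios above 1 in all 4 libraries was not computed, so such ratios cannot be called particular to these genes.

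**Figure D4:**
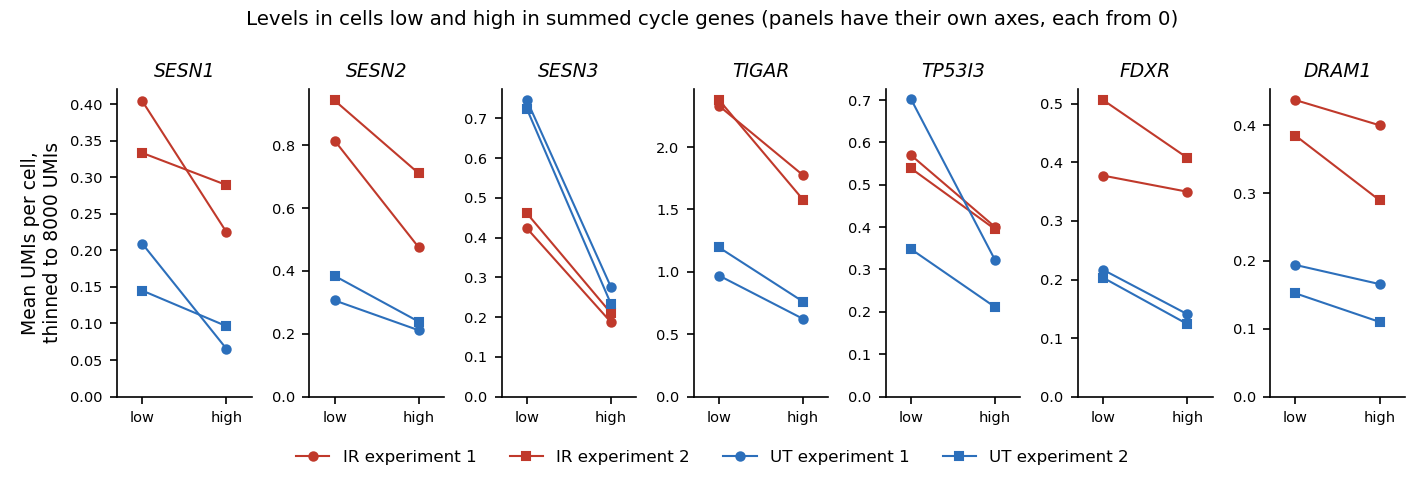
Mean UMIs per cell after thinning to 8000 UMIs (y axis of each panel, from 0) in cells low and high in cycle genes (x axis), 1 line per library, for the 7 genes with enough counts; IR is red, UT blue, circles are experiment 1 and squares experiment 2. All 28 lines descend from low to high, and SESN3 is the only gene of the 7 with both UT lines above both IR lines. How many of all genes descend in this way was not computed.

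Within cells low in cycle genes, 2 of the 8 genes were called higher in IR by edgeR (TIGAR and DRAM1), where 0.894% of 13203 genes were, and none was called lower (SESN3 had an unadjusted p = 0.00397), where 0.727% of all genes were. With the experiment as a block, 5 were called higher, where 8.63% of all genes were, and SESN3 was called lower, where 8% of all genes were. TIGAR had 287.0 and 295.8 CPM in low IR cells against 120.8 and 145.9 CPM in low UT cells, a log2 fold change of 1.06 (SE 0.17, edgeR adjusted p = 0.0313). DRAM1 had 58.8 and 55.05 CPM in low IR cells against 24.8 and 20.1 CPM in low UT cells, a log2 fold change of 1.27 (SE 0.22, adjusted p = 0.0326). Both calls were lost when the pooled cells were split into 3 sets of like size and the lowest set was used, where the log2 fold changes were 0.75 and 0.88. TIGAR lost its call without IR experiment 1 or 2 or UT experiment 1, and DRAM1 without IR experiment 1 or UT experiment 2. In low cells SESN1 had a log2 fold change of 0.75 (adjusted p = 0.263), which was 0.38 without UT experiment 2 and 0.47 in the lowest of the 3 sets. In low cells FDXR had 0.80 (adjusted p = 0.164), which was 0.53 without IR experiment 2 and 0.37 in the lowest of the 3 sets. For SESN2 the log2 fold change in low cells was 0.997 (SE 0.21, edgeR adjusted p = 0.0655). It was 0.77 without IR experiment 2 and 0.71 in the lowest of the 3 sets.

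Within cells high in cycle genes, 5 of the 8 were called higher by edgeR, the same 5 as over all cells, where 1.04% of 12935 genes were called higher, and none was called lower (SESN3 had an unadjusted p = 0.00706), where 0.24% of all genes were. With the block the count was again 5, where 5.98% of all genes were, and SESN3 was called lower, where 3.45% of all genes were. The log2 fold changes were 1.49 for SESN1 (SE 0.26, edgeR adjusted p = 0.0327), 1.22 for SESN2 (SE 0.24, 0.0450), 1.26 for TIGAR (SE 0.17, 0.0131), 1.40 for FDXR (SE 0.26, 0.0391) and 1.35 for DRAM1 (SE 0.24, 0.0333). Without IR experiment 1, and likewise without IR experiment 2, none of the 5 was called. Whether the effects differ between low and high cells was not tested.

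SESN3 had lower values in IR among low cells and among high cells. In low cells it had 51.5 and 58.3 CPM in IR against 86.4 and 85.1 CPM in UT, a log2 fold change of -0.71 (SE 0.18, edgeR adjusted p = 0.110, with the block 0.000282). In high cells it had 24.0 and 23.2 CPM in IR against 37.6 and 36.2 CPM in UT, a log2 fold change of -0.72 (SE 0.21, adjusted p = 0.159, with the block 0.0269). The groups did not overlap in either set, and the IR group, which had more low cells, had the lower level within both. How many of all genes showed this pattern within the sets was not computed. When the pooled cells were split into 3 sets, the log2 fold change was -0.79 (SE 0.19) in the lowest set and -0.41 (SE 0.24) in the highest, where SESN3 over all cells had -0.43.

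TP53I3 had 88.1 and 71.0 CPM in low IR cells against 84.1 and 43.9 CPM in low UT cells, so the groups overlapped there, and its log2 fold change was 0.25 (SE 0.29). In high cells TP53I3 had 50.3 and 51.4 CPM in IR against 41.0 and 31.1 CPM in UT, a log2 fold change of 0.42 (SE 0.22). Neither passed the test.

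**Figure D5:**
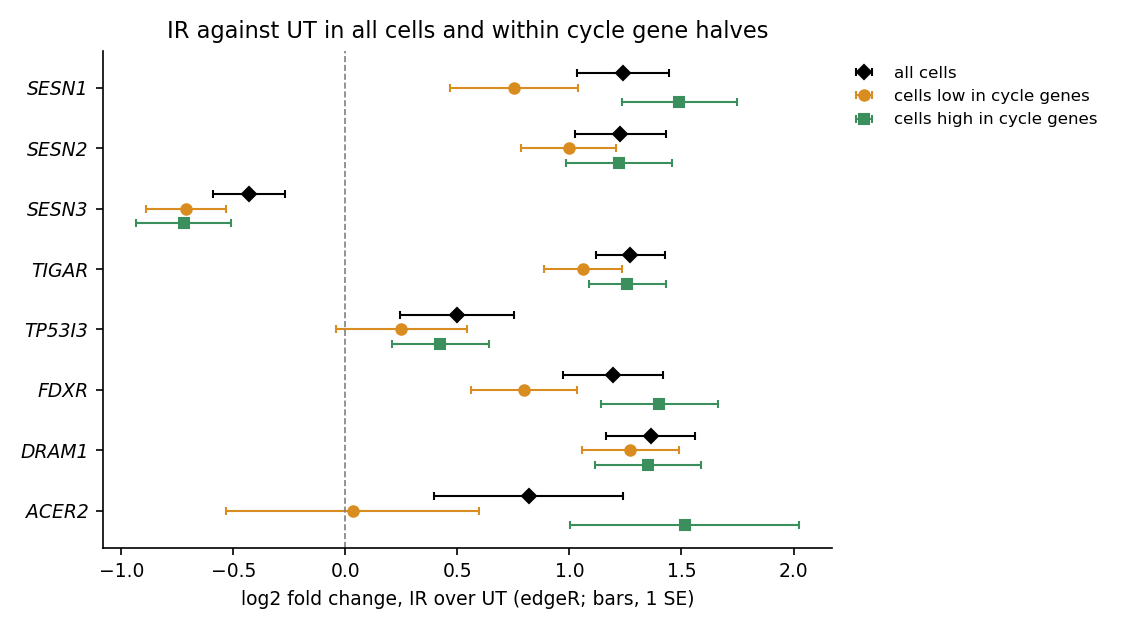
The log2 fold change of IR over UT for each gene (x axis; points, edgeR estimate; bars, 1 SE) in all cells (black diamonds), in cells low in cycle genes (orange circles) and in cells high in cycle genes (green squares). The SESN3 estimates are below 0 in all 3 sets of cells, at -0.43, -0.71 and -0.72, and those of SESN1, SESN2, TIGAR, FDXR and DRAM1 are above 0 in each, with the lowest of them at 0.75 (SESN1) and 0.80 (FDXR) in low cells.

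Across cells the genes varied together only weakly. Pearson's r of log(1 + thinned UMIs) was computed within each library over its 231 to 356 cells and averaged over the 4 libraries. The points share a library and were set to 1 depth, and the counts are sparse. With CDKN1A, r averaged 0.30 for TIGAR (0.25 to 0.36 over libraries), 0.24 for SESN2 (0.18 to 0.38) and 0.15 for SESN1 (0.07 to 0.23), and 0.07 to 0.13 for the rest. Without thinning, the UMIs of all cells of each library, which differ in depth, were scaled to 10000 per cell before the log. The same averages were then 0.38, 0.35 and 0.24, with 0.23 for FDXR and 0.14 for DRAM1. Among the 28 pairs of the 8 genes the mean r lay between -0.08 (SESN3 with DRAM1) and 0.14 (SESN2 with TIGAR). Of the 28 means 24 were above 0, and the share among pairs of other genes was not computed. Without thinning these extreme pairs averaged 0.0044 and 0.20. All these values are small, and whether they mark a relation was not tested. With the summed cycle genes, r averaged -0.25 for TIGAR and -0.24 for SESN3.

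In all 4 libraries the cells with more CDKN1A showed 7 of the 8 genes more often, the exception being DRAM1. For ACER2 this rests on few cells, and for TP53I3 the shares were nearly level in IR experiment 1. The share of all genes with the same order was not computed, so the order cannot be called particular to these genes. Cells of each library were ordered by thinned CDKN1A UMIs and the 1 in 3 cells with the most was set beside the 1 in 3 with the least. In IR, SESN1 was found in 35.1% and 25.6% of the cells with the most against 23.4% and 18.2% of those with the least, and SESN2 in 54.5% and 64.1% against 33.8% and 41.6%. In UT, SESN1 was found in 20.7% and 15.97% of the cells with the most against 2.703% and 6.78% of those with the least, and SESN2 in 26.1% and 37.0% against 18.9% and 8.47%. TIGAR followed the same order in all 4 libraries, at 89.6% and 93.6% against 77.9% and 70.1% in IR and at 70.3% and 60.5% against 37.8% and 50% in UT. SESN3 was found in 32.5% and 30.8% against 22.1% and 20.8% in IR and in 35.1% and 35.3% against 27.9% and 24.6% in UT. For DRAM1 the order was turned in IR experiment 1, at 29.9% against 32.5%, and kept in the other 3 libraries. Cells with tied CDKN1A counts were kept in their deposited order, and these shares are a description without a test.

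Only SESN3, TIGAR and TP53I3 were frequent enough in every library to look for the genes most like them among 8289 others, by the mean within-library r across cells. For TIGAR these were CDKN1A (0.30), MDM2 (0.22) and the long noncoding RNA NEAT1 (0.20). For SESN3 they were YPEL2 (0.24), NEAT1 (0.23) and MAP1A (0.21). For TP53I3 they were ANXA4 (0.17), GRN (0.16) and AHNAK2 (0.16). No p53 target used as a check, CDKN1A or MDM2, was thus among the 3 most like SESN3 or TP53I3, and all these r values are low.

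No gene of the 8 that could be assessed had a residual spread above 0.5 between cells, but SESN3 ranked high in every library. The SD of log-normalised levels over cells was set against a straight line of log2 SD on log2 mean, fitted over genes. A residual above 0.5 was found in 0.384% to 1.03% of genes. It was found in none of the 8 in IR or of the 7 assessed in UT, where ACER2 was in too few cells. SESN3 had residuals of 0.32 and 0.20 in IR against 0.33 and 0.33 in UT, among the highest 8% of genes in each library. Its percentiles among genes were 97.2 and 92.7 in IR and 98.5 and 98.3 in UT. Those of SESN2 were 85.3 and 92.2 in IR and 96.2 and 97.2 in UT. TIGAR had residuals of -0.09 and -0.21 in IR against 0.18 and 0.22 in UT. It lay below the line in IR and above it in UT. Its mean differed between the groups, so these residuals do not show in which group cells were more alike. The variance of thinned TIGAR UMIs over their mean was 1.37 and 1.46 in IR against 1.25 and 1.34 in UT. Thinning moved the residuals of SESN3 to 0.13 and 0.15 in IR and 0.22 and 0.24 in UT. In IR experiment 1 SESN3 was then outside the highest 8%. Thinning moved the IR residuals of TIGAR to -0.09 and -0.06 and the UT residuals to 0.15 and 0.18.

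The genes around these pathways were described by lists, with counts over all genes tested. Beside the edgeR shares given above, 14.3% higher and 12.9% lower with the block among them, 10.2% of all genes were higher and 8.25% lower at an unadjusted p under 0.05, and DESeq2 called 2.33% higher and 1.58% lower. Of the other p53 metabolic targets, 15 were tested, 3 rose and none fell by edgeR (7 rose with the block and 4 by DESeq2, none was lower by either or at an unadjusted p under 0.05), and the median log2 fold change was 0.60 where that of all genes was -0.0033. RRM2B, a ribonucleotide reductase subunit induced by p53, had 231.0 and 240.1 CPM in IR against 70.7 and 93.0 CPM in UT (log2 fold change 1.45, edgeR adjusted p = 0.0200). TP53INP1, a stress protein of the p53 and autophagy pathways, had a log2 fold change of 1.303 (adjusted p = 0.0205), and FUCA1, a lysosomal fucosidase, 1.38 (adjusted p = 0.0403).

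No gene of the machinery through which sestrins act was called, where edgeR called 1.63% of all genes higher and 0.847% lower. At those shares a list of 34 genes may hold no call, so this does not show an absence of change. Of 34 genes of the GATOR, KICSTOR, Rag and mTORC1 machinery none was called in either direction by edgeR or DESeq2 (5 rose with the block, a share near that of all genes, and at an unadjusted p under 0.05 3 were higher and none lower), and the median log2 fold change was 0.11. The smallest p belonged to RRAGD, a Rag GTPase, with 29.3 and 29.6 CPM in IR against 16.2 and 18.4 CPM in UT (0.69, adjusted p = 0.101). Of 17 tested genes of ATF4 and its targets 1 rose and none fell by edgeR, with a median of 0.12 (5 rose and 2 fell with the block, 2 rose and 1 fell by DESeq2, and at an unadjusted p under 0.05 4 were higher and 1 lower). The edgeR call was ATF3, a stress factor that p53 can also induce, at 53.5 and 84.7 CPM in IR against 13.5 and 14.7 CPM in UT (2.21, adjusted p = 0.0185). Of 13 tested FOXO factors and targets 1 rose, the autophagy gene GABARAPL1 (0.84, adjusted p = 0.0482), none fell, and the median was 0.35 (7 rose with the block and 3 by DESeq2, and none was lower by either or at an unadjusted p under 0.05).

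Lists around TIGAR and FDXR had no edgeR call. At the edgeR shares of all genes (1.63% higher, 0.847% lower) lists of this size may hold none. Of 25 glycolysis and pentose phosphate genes none was called by edgeR or DESeq2 (4 rose and 5 fell with the block, and at an unadjusted p under 0.05 2 were higher and 2 lower), and the median log2 fold change was -0.02. HK2, a hexokinase, had the smallest p (0.75, edgeR adjusted p = 0.121). Of 21 ferredoxin and iron-sulfur cluster genes none was called by edgeR or DESeq2 (2 rose with the block, and 2 were higher at an unadjusted p under 0.05), with a median of -0.04 and with FDX2, a ferredoxin, first by p (0.75, adjusted p = 0.192). Of 18 NRF2 and peroxide defence genes none was called by edgeR (2 rose and 5 fell with the block, 1 rose and 1 fell by DESeq2, and at an unadjusted p under 0.05 2 were higher and 2 lower), with a median of -0.04 and with HMOX1, heme oxygenase, first by p (1.09, adjusted p = 0.0710).

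Lists around DRAM1 and ACER2 had 1 call each. Of 25 autophagy genes and relatives of DRAM1, WIPI1, a phosphoinositide-binding protein of the early autophagosome, rose to 78.3 and 78.4 CPM in IR against 36.1 and 41.1 CPM in UT (0.94, edgeR adjusted p = 0.0389), and none fell. The median of that list was 0.17 (8 rose and 1 fell with the block, 1 rose by DESeq2, and at an unadjusted p under 0.05 5 were higher and none lower). Of 25 ceramide and sphingolipid genes, SPHK1, the kinase that makes sphingosine 1-phosphate, rose to 43.6 and 44.3 CPM in IR against 17.4 and 15.3 CPM in UT (1.35, adjusted p = 0.0214), and none fell. The median of that list was 0.19 (7 rose with the block, 1 rose by DESeq2, and at an unadjusted p under 0.05 5 were higher and none lower).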

How the data were processed

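The authors mapped reads to GRCh38 with STARsolo, without intronic reads or reads shared between genes; the submitters' notes also name Seurat 5. For the barcode filter and strand handling: not given in the sources used here. What the authors deposited are expected counts: observed UMIs corrected for the 4096 possible sequences of 6 bases and stored to 3 significant digits. All 1220 barcodes were used. Deposited values were summed per library, rounded, and tested 2 against 2 with edgeR 4.0.16 (TMM normalization, filterByExpr, quasi-likelihood test in robust mode, called at a Benjamini-Hochberg adjusted p under 0.05), leaving out 92 ERCC spike-ins, which held 0.191% and 0.952% of counts in IR and 0.318% and 1.21% in UT. The experiment number pairs the libraries, since titles mark it as a shared experiment; deviations from group means correlated at 0.635 between libraries of 1 experiment (biological coefficient of variation 0.177, and 0.0727 with the block, which leaves 1 residual degree of freedom). The p-values reflect only how far these libraries differ from each other. UMIs were recovered for thinning. Genes, lists and tests were chosen with earlier results of these data known. Beside the 8 genes and CDKN1A and MDM2, the text names up to 3 called genes per list by p (1 if none was called) and the 3 genes most like each frequent member. Of 19 other p53 metabolic targets, 18 were matched. Scripts were tested on simulated data. Alternatives were another normalization (DESeq2 1.42.0), no filter, counts per cell, equal cells, thinned sums, leaving out each library, the block, and 3 sets of cells by cycle genes.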

Additional observations from a re-analysis of the deposited data

How the results depend on the processing

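Of the 5 calls over all cells, only that of TIGAR held without each library in turn, and the counts of ACER2 limit what can be said of it. Counts below are of genes called by edgeR over all cells unless another tool is named. Of the 8 genes, 5 were called higher; this was 3 with equal cells (SESN1 and FDXR lost, adjusted p = 0.0589 and 0.0730) and 2 to 3 when each library was left out. Of all genes, 239 were called higher, against 3332 with counts per cell, 929 with no filter, 157 with equal cells, 148 with thinned sums and 90 to 158 without 1 library. For genes called lower, 124 in all, these were 47, 584, 72, 73 and 18 to 78, and 231 with DESeq2. With the experiment number as a replicate block, 2094 genes were called higher and 1883 lower; with spike-in scaling too 5010 and 62, and with counts per cell too 9516 and 277. Of the 8, the block called 1 lower (SESN3, in all cells, low cells and high cells). The log2 fold change of SESN3 turned to 0.12 with counts per cell, 0.19 with the block and spike-in scaling, and 0.12 with the block and counts per cell; the median of all genes moved to 0.54, 0.61 and 0.54 in these. TP53I3 was called with counts per cell (1.06, adjusted p = 0.0232), and ACER2 with the block and either of these scalings (1.41 and 1.33); the cause was not tested.

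Within low cells, 2 of the 8 were called higher, against 0 in the lowest of 3 sets of cells, 5 with the block and 1 whichever library was left out. All genes called higher there were 118, against 32, 1140 and 64 to 104, and lower 96, against 21, 1056 and 41 to 90. In low cells leaving out 1 library gave log2 fold changes of -0.15 (without UT experiment 2) to 0.79 for TP53I3 and of -0.11 (without UT experiment 1) to 0.50 for ACER2. Within high cells, 5 of the 8 were called higher, against 1 in the highest of 3 sets and 0 to 4 without 1 library; all genes higher were 134, against 47 in that set, 774 with the block and 30 to 101 without 1 library, and lower 31, against 14, 446 and 4 to 43. Leaving out a library assumes that the lone library of its group varies like the others. ACER2 was filtered out of the thinned sums. Without thinning, all 32 shares of cells moved beyond their intervals, 26 of them also at 5000 UMIs. Without thinning, with all cells scaled to 10000 UMIs instead, 22 of 32 correlations with CDKN1A within libraries moved by more than the spread between libraries.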
